A study of Mus musculus with 8 samples.

Results

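Long intergenic noncoding RNA (lincRNA) genes were examined in the livers of female mice given dihydrotestosterone (DHT), a non-aromatizable androgen, on a Western diet (WD). All genes of the normalised count table whose Ensembl identifier carries the gene type lincRNA in GENCODE M21 were taken, which gave 223 lincRNA genes among 14317 mouse genes. The labels give the genotype of all these mice as WT. At age 7 weeks they received an empty pellet (Con-Veh, n = 4) or a pellet with 10 mm of DHT (Con-DHT, n = 4), and WD was fed for 8.5 weeks in both groups. Livers were collected after an overnight fast, and 1 RNA-seq library was made per mouse. Both groups shared sex, diet, genotype and fasting, and a pellet delivers DHT to the whole animal, so a direct effect on hepatocytes and an indirect one cannot be told apart.

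A lincRNA is transcribed from its own gene outside protein-coding genes, and it is usually capped, spliced and polyadenylated like an mRNA but is not translated into a long protein. Some lincRNAs act where they are made, on chromatin or in nuclear bodies, others serve as hosts from which small RNAs are cut, and for most genes with a Gm or Rik name no function is known. In liver, lincRNA levels are generally low, and some respond to sex hormones, feeding and inflammation.

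The libraries held 14240001 to 17815944 reads on mouse genes in Con-Veh and 13123962 to 15205299 in Con-DHT. lincRNA genes took 0.341% to 0.409% of these reads in Con-Veh and 0.388% to 0.433% in Con-DHT, and 5 genes (Malat1, Xist, Neat1, Gm26917 and Gm42047) held 70.2% of all lincRNA reads. Xist, the RNA that coats the inactive X chromosome, was high in all 8 libraries, and 0 of 4 Y-linked genes were in the table, as the label female requires. All 5 hepatocyte markers were present. Of 6 Kupffer cell markers, 3 were lower in Con-DHT (summed normalised read count 3243 to 3859 in Con-Veh and 2413 to 3109 in Con-DHT), and of 5 endothelial markers, 2 were lower (3021 to 3359 and 2220 to 2541). In whole liver RNA, fewer cells of a type and less RNA per cell cannot be told apart.

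lincRNA genes were expressed at lower levels than protein-coding genes. Their median normalised read count was 31.6, against 253 for protein-coding genes, and per kb of exon the medians were 18.3 and 52.6. Their exons were shorter in sum (median 2317 against 4488 bases), the median of the largest exon number per transcript was 3 against 9, and 33 lincRNA genes had a single exon. The spread between mice of a group was wider, with a median SD of 0.39 on the log2 scale against 0.19. All 223 genes passed the filter on low values (a mean of at least 10), but 73 had a mean under 20 and 7 had a mean of at least 1000. The filter removed none because every lincRNA gene of the deposited table held at least 82 reads over the 8 libraries. GENCODE M21 lists 5854 lincRNA genes, so the levels, spreads and shares given here describe only those counted in the table.

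Few lincRNA genes passed the test for a difference between Con-DHT and Con-Veh. By limma on log2(normalised read count + 1) with Benjamini-Hochberg adjustment over 14312 genes, 7 of 223 lincRNA genes (3.14%) passed the threshold of 0.05 on the adjusted p, 5 of them above and 2 below the Con-Veh level. Among all tested genes 7.21% passed the same test (4.6% above and 2.61% below). The higher genes were C330002G04Rik, Gm30931, Gm47398, B930025P03Rik and Gm45044, and the lower genes were AW112010 and Gm44787. The difference in share moved with level. Between a mean of 10 and 30, 2 of 107 lincRNA genes (1.87%) passed, against 8.68% of all tested genes, and between 30 and 100, 2 of 71 (2.82%) passed, against 7.90%. Between 100 and 1000, 3 of 38 (7.89%) passed, against 5.77% of all tested genes, and at 1000 or more 0 of 7 passed, against 9.20%. At that level 0 passed by edgeR as well, 1 by DESeq2 (Malat1), and 2 had an unadjusted limma p of at most 0.05 (Malat1 and Neat1). Over all levels edgeR called 7 lincRNA genes (3.14%), against 7.15% of all tested genes, and DESeq2 called 17 (7.62%), against 11% of all tested genes.

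Without adjustment, 38 lincRNA genes (17%) had a p of at most 0.05, against 23.2% of all tested genes. The groups did not overlap for 23 lincRNA genes (10.3%), of which 11 lay above and 12 below Con-Veh, against 15.1% of all tested genes (8.49% above and 6.62% below). Mean differences of 1 or more log2 units, up or down, were seen for 10 of the 223 lincRNA genes (4.48%), against 4.86% of all tested genes, and 4 of the 223 (1.79%) also passed the limma test, against 3.08% of all tested genes. The median log2 fold change over the 223 genes was -0.08 (quartiles -0.34 and 0.16), with 95 genes (42.6%) above 0 and 128 below, against 48.5% of all tested genes above 0, and the median over all tested genes was -0.0081.

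**Figure D1:**
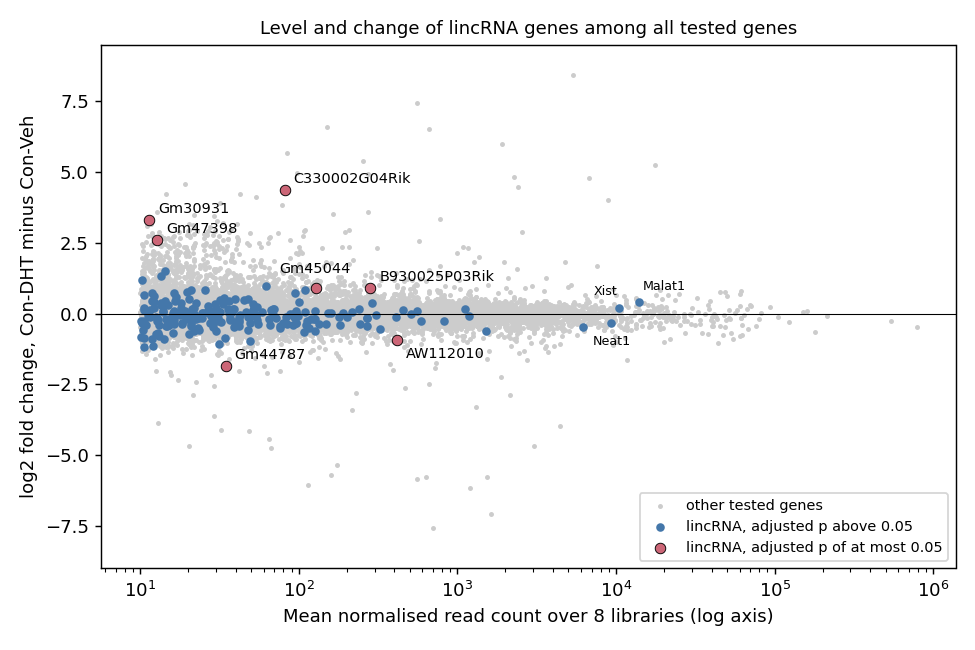
log2 fold change (Con-DHT minus Con-Veh) against the mean normalised read count over 8 libraries (log axis) for all tested genes, with the 223 lincRNA genes in colour. The 7 lincRNA genes with an adjusted p of at most 0.05 are named and span -1.85 to 4.36, while the most abundant ones, Malat1, Xist and Neat1, lie between -0.33 and 0.39.

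C330002G04Rik had the highest rise of the 7 genes. It is a spliced gene on chromosome 19 (chr19:22978230-23075924, minus strand, GRCm38) with 2776 bases of exon, and its end lies over the end of Trpm3, a cation channel gene on the plus strand. No function of its RNA is assumed here. It was also on a list of leading genes that the study drew from these libraries, so its direction there is not independent evidence. RefSeq holds promoter windows for 112 of the 223 lincRNA genes, from 250 bases before to 50 after the start site, and for 3 of the 7 changed ones. They are shown because they are the stretches in which elements bound by transcription factors are usually looked for. The windows are from GRCm38.p6 and are written 5′ to 3′ on the minus strand, at chr19:23075857-23076156 for C330002G04Rik, chr8:10882405-10882704 for B930025P03Rik and chr19:11050517-11050816 for AW112010. Capitals mark matches to the searched motifs.
C330002G04Rik: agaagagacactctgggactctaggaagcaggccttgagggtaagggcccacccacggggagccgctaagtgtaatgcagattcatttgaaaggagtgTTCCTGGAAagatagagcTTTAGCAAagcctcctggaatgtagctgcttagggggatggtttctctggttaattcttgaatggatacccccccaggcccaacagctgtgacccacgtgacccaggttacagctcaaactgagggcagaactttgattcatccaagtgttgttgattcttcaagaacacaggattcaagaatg
B930025P03Rik: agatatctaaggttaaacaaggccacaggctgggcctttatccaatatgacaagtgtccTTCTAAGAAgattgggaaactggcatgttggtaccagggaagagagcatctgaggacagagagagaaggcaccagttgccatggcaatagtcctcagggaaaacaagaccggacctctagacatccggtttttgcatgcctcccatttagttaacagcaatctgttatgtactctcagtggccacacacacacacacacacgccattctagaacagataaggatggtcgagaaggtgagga
AW112010: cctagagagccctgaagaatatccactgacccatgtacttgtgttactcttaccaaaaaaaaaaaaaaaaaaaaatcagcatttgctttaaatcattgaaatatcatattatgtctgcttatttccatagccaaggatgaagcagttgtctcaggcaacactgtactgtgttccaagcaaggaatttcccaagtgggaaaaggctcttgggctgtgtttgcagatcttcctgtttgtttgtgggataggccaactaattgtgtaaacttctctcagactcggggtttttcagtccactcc

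The motifs were searched on both strands: TTCNNNGAA, bound by STAT5, AGGTCANAGGTCA for HNF4A, TTGCNNAA for C/EBP factors and TATAAA for the TATA box. RefSeq lists 5 windows for C330002G04Rik, and only the most upstream one was searched and is shown. It held a STAT5 match from -152 to -144 (the start site is 0) and a C/EBP match from -134 to -127. The window of B930025P03Rik held a STAT5 match from -191 to -183. The window of AW112010 held none of the motifs. Taking the most upstream window of each of 27025 genes, 8.42% held the STAT5 motif and 10.7% the C/EBP motif, and of the 112 lincRNA genes 6.25% and 12.5% did. The HNF4A motif was in 12 windows of all genes and in 0 lincRNA windows, and the TATA box in 14.2% of all and 17% of lincRNA windows. A match of letters is a description and not evidence of binding.

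Normalised read counts of C330002G04Rik were 6.60, 7.72, 2.99 and 9.57 in the 4 Con-Veh livers and 162, 149, 90.8 and 222 in the 4 Con-DHT livers. Every Con-DHT liver was far above every Con-Veh liver, and the lowest value of the group was in Con-DHT replicate 3. The mean rose from 6.72 ± 2.77 to 156 ± 53.7 (SD, n = 4 per group), a 23.2-fold difference of means. On the log2(normalised read count + 1) scale the difference was 4.36 (SE 0.35, limma adjusted p = 0.000188), the 15th highest of 14312 tested genes. Summed reads were 28 and 612, a ratio of 22.7 with an exact binomial 95% interval of 15.5 to 34.4, which covers counting error only. Of its exon bases 351 (12.6%) lay over exons of Trpm3 on the other strand. Trpm3 itself was at 35.2, 13.5, 16.0 and 14.8 in Con-Veh and at 37.3, 44.5, 52.1 and 63.0 in Con-DHT, higher by 1.35 on the log2 scale (SE 0.31, limma adjusted p = 0.0279). Other genes of the annotation shared short stretches with C330002G04Rik, the longest 165 bases at 95.2% identity. Whether the reads were counted by strand is not given in the sources used here, so reads over the shared bases cannot be told apart between the 2 genes.

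Gm30931 and Gm47398 were near the limit of counting in Con-Veh and were clearly counted in Con-DHT. All their Con-Veh values lay below the mean that the filter on low values required, and this also held for C330002G04Rik. These genes therefore entered the test only through their Con-DHT values. Gm30931 (chr8:46363251-46367204, plus strand) lies 104 kb upstream of Acsl1, which encodes a long-chain acyl-CoA synthetase. Gm47398 (chr10:44851393-44866786, minus strand) has Prep, a peptidase gene, as its nearest protein-coding gene in the table, 200 kb away. RefSeq windows were not used for these 2 genes or for Gm45044 and Gm44787, and the first bases of their longest GENCODE M21 transcripts are shown instead, as the RNAs have few names by which to find them.
Gm30931: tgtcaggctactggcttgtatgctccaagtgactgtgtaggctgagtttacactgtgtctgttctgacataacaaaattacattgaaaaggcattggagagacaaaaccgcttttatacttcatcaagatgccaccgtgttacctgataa
Gm47398: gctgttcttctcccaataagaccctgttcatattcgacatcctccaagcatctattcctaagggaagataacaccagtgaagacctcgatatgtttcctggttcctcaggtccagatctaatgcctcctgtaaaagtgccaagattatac
Gm45044: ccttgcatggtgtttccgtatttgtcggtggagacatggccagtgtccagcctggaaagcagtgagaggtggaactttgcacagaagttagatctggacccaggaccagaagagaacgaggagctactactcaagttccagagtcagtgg
Gm44787: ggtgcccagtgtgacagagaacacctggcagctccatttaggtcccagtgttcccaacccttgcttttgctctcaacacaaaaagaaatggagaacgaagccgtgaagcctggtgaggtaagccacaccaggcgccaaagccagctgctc

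Gm30931 was at 0, 1.93, 2.00 and 1.74 in Con-Veh and at 19.6, 19.4, 15.3 and 31.5 in Con-DHT. The groups did not overlap, and no Con-Veh library held more than 2 reads. The log2 difference was 3.29 (SE 0.46, limma adjusted p = 0.00251), a fitted value that depends on the pseudocount at such low counts. Leaving out 1 library at a time, Gm30931 passed in 7 of 8 fits. Without Con-DHT replicate 4, its highest library, it had no test result. Summed over the groups there were 6 and 84 reads, a ratio of 14.5 with an exact binomial 95% interval of 6.39 to 40.7. Acsl1 was 18834 ± 3156 in Con-Veh and 30749 ± 5490 in Con-DHT (SD, n = 4), higher by 0.70 (SE 0.16, limma adjusted p = 0.0262). Scaled to the ERCC spike-ins, the log2 difference of Acsl1 was 0.90, with a limma adjusted p of 0.0898. The study chose Acsl1 for qRT-PCR because of a significant change in its own RNA-seq. That RNA-seq result came from these same libraries and is not independent of the values here. By qRT-PCR the study then reported Acsl1 as unchanged by DHT in livers of WD mice. Acsl1 lies beyond the 100 kb used for neighbours here, and it was looked at after its values were seen.

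Gm47398 was at 2.2, 2.90, 2.99 and 3.48 in Con-Veh and at 24.5, 26.1, 18.4 and 21.7 in Con-DHT. It had the tightest groups of the 3 genes with the highest fold changes, and the values did not overlap. The log2 difference was 2.60 (SE 0.29, limma adjusted p = 0.000898), from 12 and 90 reads, a ratio of 7.77 with an exact binomial 95% interval of 4.24 to 15.6. Its reads are uncertain in origin. Of its 3038 exon bases, 595 (19.6%) lay over a processed pseudogene. Prep was 543 ± 7.40 and 596 ± 52.1 (log2 difference 0.13, SE 0.077, limma adjusted p = 0.350).

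**Figure D2:**
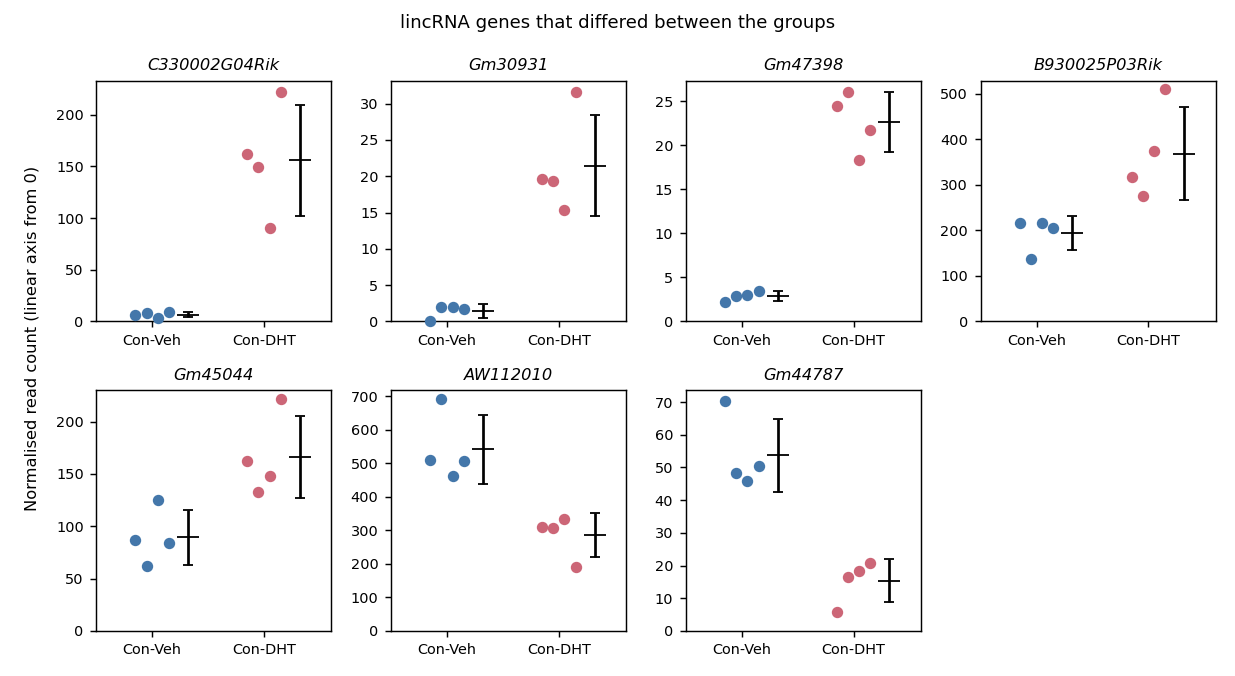
Normalised read counts of the 7 lincRNA genes with an adjusted p of at most 0.05, 1 panel per gene on a linear axis from 0, with 1 point per liver and the mean ± SD (n = 4) beside each group. In all 7 panels the Con-Veh and Con-DHT points are apart, with 5 genes higher in Con-DHT and 2 lower.

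B930025P03Rik and Gm45044 rose by nearly the same amount and lie next to each other. They are on the minus strand of chromosome 8, B930025P03Rik at chr8:10870422-10882454 and Gm45044 at chr8:10884453-10891591, with 2.0 kb between them. Both belong to a run of 5 lincRNA genes of the table on that strand downstream of Irs2, the gene of an adaptor protein that carries the insulin signal from its receptor in hepatocytes. With the 2 transcription units this close and on 1 strand, separate RNAs and 1 longer RNA cannot be told apart from gene totals.

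B930025P03Rik was at 215, 138, 217 and 206 in Con-Veh and at 317, 275, 374 and 510 in Con-DHT. The lowest Con-DHT liver was above the highest Con-Veh liver, and the mean rose from 194 ± 37.7 to 369 ± 102 (SD, n = 4), by 0.91 on the log2 scale (SE 0.20, limma adjusted p = 0.0247). Gm45044 was at 86.8, 61.8, 125 and 83.6 in Con-Veh and at 162, 133, 148 and 222 in Con-DHT. The gap between its groups was narrow, from 125 to 133, and the mean rose from 89.2 ± 26.2 to 166 ± 39.0, by 0.91 (SE 0.22, limma adjusted p = 0.0348). These 2 calls were the least stable of the 7. Leaving out 1 library at a time, B930025P03Rik passed in 5 of 8 fits (lost without Con-Veh replicate 2, Con-Veh replicate 4 or Con-DHT replicate 3) and Gm45044 in 2 of 8, with adjusted p up to 0.0558 and 0.0858.

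The rest of the run did not pass the test. Gm32540, 4.2 kb beyond B930025P03Rik, had means of 31.3 ± 14.1 and 41.3 ± 10.2 (log2 difference 0.44, SE 0.30, limma adjusted p = 0.423). Gm2814, 6.6 kb from Gm45044 on the side of Irs2, had means of 106 ± 12.2 and 86.5 ± 27.3 (log2 difference -0.34, SE 0.21, limma adjusted p = 0.364). 3930402G23Rik, a further 23.9 kb towards Irs2, ranged from 19 to 129 in Con-Veh and from 26.1 to 90.2 in Con-DHT (log2 difference 0.13, SE 0.55, limma adjusted p = 0.916). Irs2 was at 522, 537, 1014 and 626 in Con-Veh and at 1031, 625, 1252 and 976 in Con-DHT. Its groups overlapped (log2 difference 0.54, SE 0.24, limma adjusted p = 0.216). Differences between the neighbours were not tested.

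**Figure D3:**
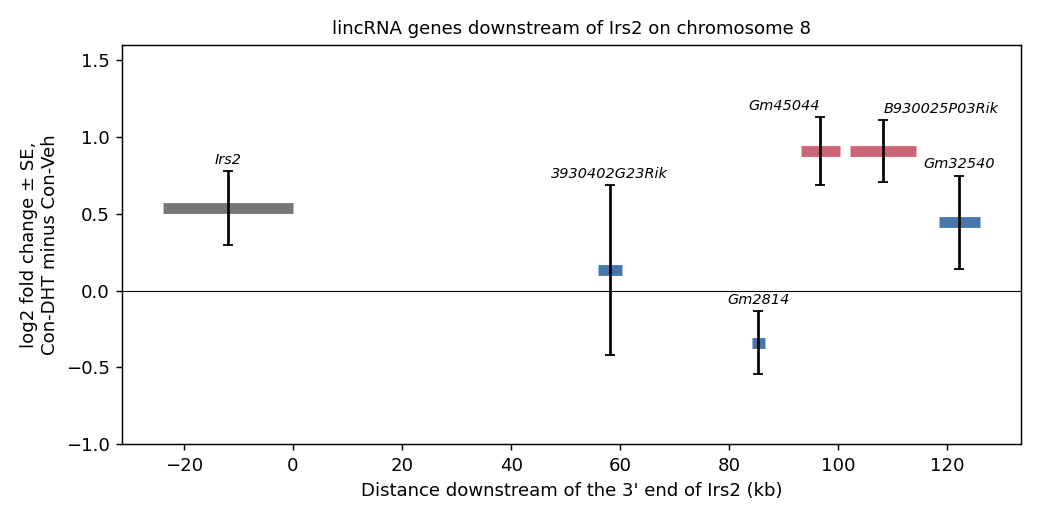
log2 fold change (Con-DHT minus Con-Veh, n = 4 per group) of Irs2 and the 5 lincRNA genes downstream of it, with each gene drawn as a bar at its distance in kb from the 3' end of Irs2 and the vertical lines showing the SE. Gm45044 and B930025P03Rik, in red, both sit at 0.91, while Gm2814 sits at -0.34, Gm32540 at 0.44 and 3930402G23Rik at 0.13.

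AW112010 fell to 0.53 of its Con-Veh level. This RNA is induced by interferon, is best known from immune cells, and has been described as translated in macrophages from a start codon other than AUG. It lies on chromosome 19 (chr19:11047612-11055808, minus strand), 11.7 kb downstream of Ms4a8a. Per kb of exon it was the 5th most abundant of the 223 lincRNA genes, at 515. It was at 510, 693, 461 and 507 in Con-Veh and at 311, 308, 335 and 191 in Con-DHT. Every Con-DHT liver was below every Con-Veh liver, and the mean fell from 543 ± 103 to 286 ± 64.4 (SD, n = 4), a log2 difference of -0.94 (SE 0.18, limma adjusted p = 0.0141). Scaled to the ERCC spike-ins, the direction was kept, with a log2 difference of -0.74 and a limma adjusted p of 0.207. The Kupffer cell markers Clec4f (log2 difference -0.40, adjusted p = 0.0387), Cd68 (-0.61, 0.0151) and Vsig4 (-0.57, 0.0115) were also lower in Con-DHT by limma. So were the endothelial markers Stab2 (-0.55, adjusted p = 0.0176) and Lyve1 (-1.26, adjusted p = 0.0387) by limma. The Kupffer cell markers Adgre1 (-0.42), Timd4 (-0.65) and Marco (-0.59) did not pass (limma adjusted p 0.0952 to 0.149). Neither did the endothelial markers Clec4g (-0.35), Pecam1 (-0.18) and Kdr (0.00026), with limma adjusted p of 0.126 to 0.999. All 5 markers of T and NK cells were absent from the table, as were 3 of 5 B cell markers. The part of these cells in the result was not tested. Ms4a8a had means of 23 ± 4.90 and 14.1 ± 3.01 (log2 difference -0.67, SE 0.27, limma adjusted p = 0.166).

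Gm44787 had the stronger fall of the 2 lower genes. It lies on chromosome 11 (chr11:79258586-79273893, minus strand), 3.9 kb upstream of Wsb1, which encodes a substrate-binding subunit of a ubiquitin ligase, and on the same strand. It was at 70.4, 48.3, 45.9 and 50.5 in Con-Veh and at 5.89, 16.5, 18.4 and 20.7 in Con-DHT. The groups lay well apart, and the mean fell from 53.8 ± 11.2 to 15.3 ± 6.53 (SD, n = 4), a log2 difference of -1.85 (SE 0.35, limma adjusted p = 0.0121). Wsb1 was at 874, 411, 573 and 346 in Con-Veh and at 383, 241, 573 and 367 in Con-DHT. Its groups overlapped (log2 difference -0.47, SE 0.30, limma adjusted p = 0.398).

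Among neighbours within 100 kb, called pairs were few. Of 198 lincRNA genes with a protein-coding gene of the table within that distance, 4 passed the test, and for 1 of them (C330002G04Rik with Trpm3) the neighbour passed in the same direction. Of the 194 that did not pass, 13 (6.70%) had a neighbour that did, against 598 of 11045 protein-coding genes that did not pass (5.41%). Among protein-coding genes, 86 of 743 that passed (11.6%) had a neighbour that passed in the same direction. Exons of 93 lincRNA genes overlapped exons of another GENCODE M21 gene, and this held for 2 of the 7 changed genes.

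None of the 21 lincRNA genes on the lists for nuclear architecture, X inactivation, imprinting, small RNA hosts and published regulatory roles passed the limma test. By edgeR 0 passed as well, by DESeq2 3 passed (Meg3, Malat1 and Epb41l4aos), and 7 had an unadjusted limma p of at most 0.05. Over all tested genes the shares were 7.21% by limma, 7.15% by edgeR, 11% by DESeq2 and 23.2% without adjustment. In the nucleus, Malat1 is a component of nuclear speckles and Neat1 builds paraspeckles, and their genes lie 22.0 kb apart on 1 strand of chromosome 19. Malat1, the most abundant lincRNA per kb of exon (2004), was at 12279, 12028, 14000 and 10216 in Con-Veh and at 16139, 17054, 13917 and 16331 in Con-DHT. One Con-DHT liver lay just under the highest Con-Veh liver, and the log2 difference was 0.39 (SE 0.11, limma adjusted p = 0.0679, DESeq2 adjusted p = 0.0115). Neat1 was at 12355, 9181, 9170 and 10376 in Con-Veh and at 7225, 8441, 6898 and 10254 in Con-DHT (log2 difference -0.33, SE 0.14, limma adjusted p = 0.195). The ratio of Malat1 to Neat1 within a library, which no scaling changes, was 0.994, 1.31, 1.53 and 0.985 in Con-Veh and 2.23, 2.02, 2.02 and 1.59 in Con-DHT. Its mean was 1.20 ± 0.263 and 1.97 ± 0.269 (SD, n = 4), and the groups did not overlap. The ratio was chosen after the values were seen, and no test is given for it.

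The 3 genes of X inactivation in the table did not pass the test. Xist was 9653 ± 1127 in Con-Veh and 11071 ± 1030 in Con-DHT (log2 difference 0.20, SE 0.11, limma adjusted p = 0.290). Jpx, which promotes Xist transcription, differed by 0.020 (SE 0.22), and Ftx, another gene of the X inactivation centre, by -0.026 (SE 0.13). Of the imprinted lincRNA genes, Meg3, expressed from the maternal chromosome, was at 89.0, 54.1, 125 and 58.3 in Con-Veh and at 111, 149, 160 and 132 in Con-DHT. One Con-Veh liver lay within the Con-DHT range (log2 difference 0.82, SE 0.25, limma adjusted p = 0.0809, DESeq2 adjusted p = 0.0406). H19, also maternal and strongly expressed in fetal liver, was at 14.3, 10.6, 19 and 15.7 in Con-Veh and at 8.83, 0.971, 22.5 and 4.35 in Con-DHT. The Con-DHT livers spanned the Con-Veh range on both sides (log2 difference -1.15, SE 0.64, limma adjusted p = 0.321).

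The 6 small RNA host genes ranged from -0.66 to 0.10 in log2 fold change, with a median of -0.36, and 0 passed the limma test (0 also by edgeR, 1 by DESeq2, and 3 with an unadjusted limma p of at most 0.05). The shares of all tested genes were 7.21%, 7.15%, 11% and 23.2% in the same order. Snhg12, whose introns hold small nucleolar RNAs, was at 151, 134, 156 and 164 in Con-Veh and at 112, 113, 113 and 128 in Con-DHT. The groups did not overlap (log2 difference -0.37, SE 0.11, limma adjusted p = 0.0707). Epb41l4aos was at 122, 129, 158 and 119 in Con-Veh and at 64.8, 105, 69.4 and 97.8 in Con-DHT, again without overlap (log2 difference -0.66, SE 0.18, limma adjusted p = 0.0540, DESeq2 adjusted p = 0.0176). Mir17hg, the host of the miR-17-92 cluster, had means of 58.4 ± 21.9 and 36.9 ± 4.67 (log2 difference -0.58, SE 0.26, limma adjusted p = 0.216). Snhg6, Snhg20 and Snhg18 differed by -0.34, -0.12 and 0.10.

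The 8 other lincRNA genes with published regulatory roles ranged from -0.47 to 1.52 in log2 fold change. Miat, a nuclear RNA first described in heart disease, was at 7.70, 1.93, 16.0 and 6.09 in Con-Veh and at 16.7, 19.4, 28.6 and 18.5 in Con-DHT. Its groups did not overlap by a narrow margin (log2 difference 1.52, SE 0.48, limma adjusted p = 0.0905). 2900097C17Rik, the mouse Norad gene, whose RNA binds Pumilio proteins, was 434 ± 60.3 and 469 ± 34.3 (log2 difference 0.12, SE 0.11, limma adjusted p = 0.567). Lncpint (0.049), Platr4 (0.28), Pvt1 (-0.20), Bvht (-0.32) and 1810058I24Rik (-0.28) had log2 differences within 1.5 SE of 0. Gm26917 and Gm42418, 0.6 kb apart on chromosome 17, had log2 differences of -0.47 (SE 0.28) and -0.26 (SE 0.20), and Gm26917 held 7.55 to 13.4 times the value of Gm42418 across libraries. This region is known for its likeness to ribosomal RNA repeats, and the share of such reads in the 2 values was not tested.

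**Figure D4:**
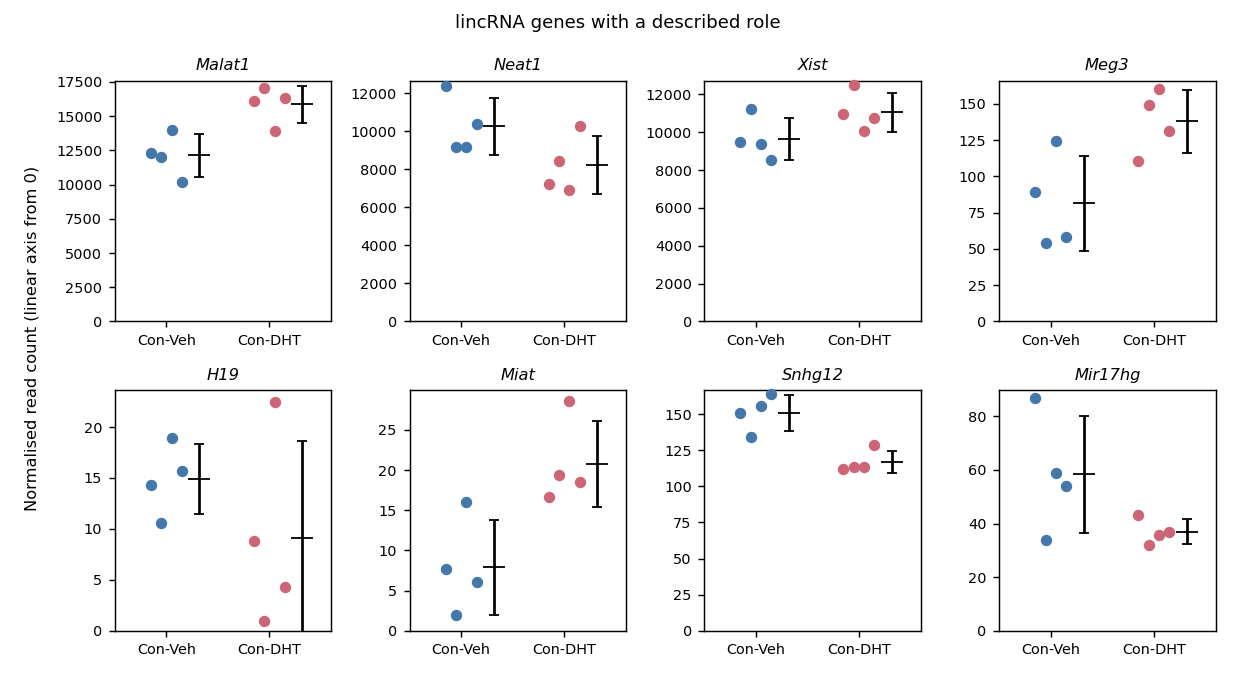
Normalised read counts of 8 lincRNA genes with a described role, 1 panel per gene on a linear axis from 0, with 1 point per liver and the mean ± SD (n = 4) beside each group. Snhg12 and Miat are without overlap between the groups, and the other 6 overlap, with none of the 8 at an adjusted p of at most 0.05 in limma.

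Uncalled genes without overlap and with a mean of at least 50 were also ranked by the size of their log2 difference. Besides the genes above, the largest were Gm27216 (152 ± 23.1 in Con-Veh and 101 ± 22.7 in Con-DHT, log2 difference -0.61, limma adjusted p = 0.0687) and Gm5524 (135 ± 14.7 and 95.9 ± 17.9, -0.50, limma adjusted p = 0.0801). Gm10076 was 272 ± 17.5 and 214 ± 33.5 (log2 difference -0.36, limma adjusted p = 0.108), but 383 of its bases matched the ribosomal protein gene Rpl41 at 99.5% identity. Rpl41 was 2241 ± 162 and 1851 ± 218 (log2 difference -0.28, limma adjusted p = 0.106), and reads that lie within the match cannot be told apart between the 2 genes. Tmem250-ps, at 478 per kb, varied little, with 1222 ± 68.0 and 1149 ± 62.5. At the other end, Gm42047 ranged from 458 to 3641 in Con-Veh and from 591 to 2075 in Con-DHT, and Gm15889 from 45.1 to 255 and from 59.8 to 391. For both the spread within a group exceeded the difference of the means.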

How the data were processed

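Total liver RNA of 4 Con-Veh and 4 Con-DHT mice was sequenced. Per the labels, the authors' processing notes name Trimmomatic, STAR, featureCounts from Subread, DESeq2 and GRCm39. The deposited values are gene counts divided by a DESeq2 size factor (unit signal, called normalised read counts here). Multiplying by the factor returned whole reads for 100% of values within 0.01 read, with 81 reads or more per feature over the 8 libraries.

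Groups came from the labels. Gene types, exons and coordinates came from GENCODE M21 (GRCm38), joined by gene identifier only, and promoter windows from RefSeq (GRCm38.p6). Genes with a mean of at least 10 were tested with limma 3.58.1 (R 4.3.3, trend) on log2(value + 1), with Benjamini-Hochberg adjustment over 14312 genes and a threshold of 0.05, without a replicate block. Alternatives were pseudocounts, filters, scalings, edgeR 4.0.16 and DESeq2 1.42.0 on the recovered reads, the replicate block, and leaving out 1 library. The script for the fits was tested on simulated data with differences of 1 or 2 log2 units. Of the calls at 0.05, 6.74% were false with limma, 6.70% with edgeR and 14.2% with DESeq2. Of the differences of 1 log2 unit, limma found 78.4%, edgeR 79.4% and DESeq2 85.6%. Similar copies were searched with blastn 2.17.0. Depth was 13123962 to 17815944 reads, and intervals cover counting error only. Libraries of a group differed by more than sampling noise (chi-square per degree of freedom 19.2 to 61.6).

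Named genes were those called, those of the role lists, those highest per kb and those with the widest spread. Uncalled genes without overlap were named if they had the largest log2 differences in size and a mean of at least 50. The members and lists were chosen with earlier results of these data known. Some items, a detail of the genotype among them, are not reported here.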

Additional observations from a re-analysis of the deposited data

Results flagged for a closer look

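Among 72 groups of 4 values of named lincRNA genes, 4 held a sample whose gap to the next value, divided by the range of the group, was above the 95% critical value of Dixon's test, and chance alone gives about 1 in 20. For Gm30931 this was the lowest Con-Veh liver, replicate 1, with a ratio of 0.872 and no reads. For B930025P03Rik it was the lowest Con-Veh liver, replicate 2, with a ratio of 0.868 and a normalised read count of 138. For Gm15889 it was the highest Con-DHT liver, replicate 2, with a ratio of 0.872 and a normalised read count of 391. For Snhg12 it was the highest Con-DHT liver, replicate 4, with a ratio of 0.912 and a normalised read count of 128.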

How the results depend on the processing

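The 7 lincRNA calls (5 higher, 2 lower) kept their number with pseudocounts of 0.1 and 5, no filter, quantile normalization and edgeR. A mean of at least 50 left 4 (3 higher, 1 lower) of 648 calls over all genes, against 1032, because fewer genes were tested. Scaling to a total without the Mup genes gave 11 (9 higher), ERCC scaling 9 (8 higher, 1 lower; 636 over all genes), limma without the trend 6 (3 higher), and DESeq2 17 (10 higher, 7 lower; 1569 over all genes). Leaving out 1 library gave 5 to 11 lincRNA calls, 3 to 8 of them higher, and 638 to 897 over all genes. The 11 came without Con-Veh replicate 3, which added Malat1, Meg3, Miat and 4732465J04Rik. The causes were not tested. ERCC scaling moved the median log2 difference of all tested genes from -0.0081 to 0.19, and the Mup-free total to 0.090, and the share of calls that were higher went from 63.8% to 88.2% and 83.9%. All 7 calls kept their direction with ERCC scaling. Among the 36 named lincRNA genes, those that changed sign by scaling were Ftx (0.17), Snhg20 (0.074) and Tmem250-ps (0.11) with ERCC scaling, and Tmem250-ps (0.0098) with the Mup-free total. Leaving out 1 library also changed the sign for 3930402G23Rik, Snhg18, Lncpint, Gm15889, Jpx and Ftx in some fits. Same-numbered libraries of the 2 groups did not deviate together (r from -0.19 to -0.0060). The labels describe no pairing of the mice, and these correlations cannot exclude one. The replicate block gave 7 lincRNA calls and 700 over all genes.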

Other observations

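Of the 13 uncalled lincRNA genes whose nearest protein-coding gene passed the test, Snhg6 was picked out after the values were seen. Its neighbour Tcf24, a basic helix-loop-helix factor gene 16.0 kb away, fell from 29.9 ± 13.6 to 4.81 ± 1.69 (SD, n = 4; log2 difference -2.35, SE 0.38, limma adjusted p = 0.00542), whereas Snhg6 was 107 ± 1.26 in Con-Veh and 85.4 ± 18.4 in Con-DHT (log2 difference -0.34, limma adjusted p = 0.213). The difference between the 2 genes was not tested.

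With DESeq2, 10 lincRNA genes passed that limma did not call: 2610035D17Rik, 4732465J04Rik, 9030622O22Rik, 9430037G07Rik, D930016D06Rik, Epb41l4aos, Gm26669, Gm27216, Malat1 and Meg3.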
